A study of Mus musculus with 2 samples.

Results

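Carboxylesterases are serine hydrolases that cleave ester bonds in drugs, environmental chemicals and lipids. Most of them are held in the endoplasmic reticulum, where they take part in xenobiotic clearance and in the turnover of triglycerides and cholesteryl esters. In mice the family has expanded by gene duplication into a Ces1 cluster, whose enzymes are best known from liver, plasma and fat, and a Ces2 cluster, whose enzymes are prominent in the small intestine. The genes described here are 10 members taken by name, namely Ces1c, Ces1d, Ces1e, Ces1f, Ces1g, Ces2a, Ces2b, Ces2c, Ces2e and the pseudogene Ces2d-ps, out of 19 carboxylesterase genes and 23358 genes listed in all. The members were chosen by gene name, and the list was drawn up with their FPKM in group D and group E in view, so the differences between the groups below are a description and carry no test.

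RNA was sequenced from the ileum (the distal small intestine) of BALB/c mice that were 21 days old by the study's methods. Mice of group D and group E alike received 0.1 ml of saline into the peritoneum and 0.2 ml of castor oil by mouth, an oil that provokes diarrhea. After 0.5 h, group D was given 0.3 ml of saline and group E 0.3 ml of ellagic acid (EA), a plant polyphenol, at 10 mg/ml, once a day for 3 days. Each gene has 1 value per group in FPKM (fragment numbers corrected for transcript length and for library size), so there are no replicates, no SD and no p-value, and the depth behind a value is unknown. The sources used here do not say how the 2 libraries made per group were joined.

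The markers of the labelled tissue were present in both groups. All 14 enterocyte markers were listed, with a summed level of 12687 FPKM in group D against 12151 FPKM in group E and a median log2 change of -0.09. The ileal bile acid carrier Fabp6 was at 5698 FPKM in group D against 3846 FPKM in group E, whereas the colon genes Car1, Aqp8, Hoxb13 and Hoxd13 were listed at 0 in both. Those colon genes and Gapdh below were picked after their values were seen. Albumin (Alb), the defining gene of liver, was listed at 0.111 FPKM (group D) and 0 (group E). Actb (β-actin) was at 4630 and 4745 FPKM. Gapdh, an enzyme of glycolysis in all cells, was listed at 0.120 FPKM (group D) and 2.98 FPKM (group E), so values near 0 may be failed estimates and are printed as they stand. In whole tissue, a smaller number of cells of a type and less RNA per cell cannot be told apart.

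The stretch around the active-site serine codon is shown first because it is what marks these genes as serine hydrolases. It is given 5′ to 3′ from the GENCODE M21 transcripts, with the serine codon in capitals.
Ces1d: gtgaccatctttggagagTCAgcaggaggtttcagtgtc
Ces1f: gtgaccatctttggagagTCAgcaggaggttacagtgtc
Ces2a: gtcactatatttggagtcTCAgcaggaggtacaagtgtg
Ces2e: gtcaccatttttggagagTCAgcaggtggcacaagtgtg
Ces2c: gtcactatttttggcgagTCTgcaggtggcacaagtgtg
Ces2d-ps: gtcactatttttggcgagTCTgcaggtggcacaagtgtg
The stretch of the pseudogene is the same as that of Ces2c, base for base, and as that of Ces2b. The serine codon is number 221 of the reading frame in Ces1d and Ces1f, 227 in Ces2a, 228 in Ces2e and 230 in Ces2c. The longest open reading frames of the 9 coding members run from 554 codons in Ces1c to 566 codons in Ces1g, and that of Ces2d-ps is 349 codons.

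The ends of the reading frames are shown because they bear on where each enzyme acts. The last 4 codons before the stop are in capitals. In Ces1d, Ces1f and Ces2e they encode the family's signal for retention in the endoplasmic reticulum, and Ces1c, the secreted esterase of mouse plasma, ends differently.
Ces1c: actgaacacACAGAACACAAAtga
Ces1d: cacagggaaCATGTTGAGCTCtga
Ces1f: cagccatacCACAATGAGCTGtga
Ces2e: caggagaggCACAAAGAGTTGtag
The receptors that return such enzymes to the endoplasmic reticulum were at similar levels in both groups. Kdelr2 was at 95.9 FPKM in group D against 90.8 FPKM in group E, Kdelr1 at 81.2 and 86.7 FPKM, and Kdelr3 at 8.96 and 8.44 FPKM.

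The ileal carboxylesterase pool was made up of 4 abundant genes in both groups. Ces2e, Ces2a, Ces2c and Ces1f together held 97.3% of all carboxylesterase FPKM in group D and 94.4% in group E. Ces2e was the highest, at 465 FPKM in group D against 458 FPKM in group E, with a log2 change of -0.02, and it held 58.7% and 59.9% of the pool. Among all genes listed, Ces2e ranked 123 in group D and 141 in group E. Its level was 3.61 times that of Ces2a in group D and 4.38 times in group E. FPKM are scaled to transcript length, so these levels can be set beside each other, but with 1 value per group there is no spread by which neighbours in the order could be called different.

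**Figure D1:**
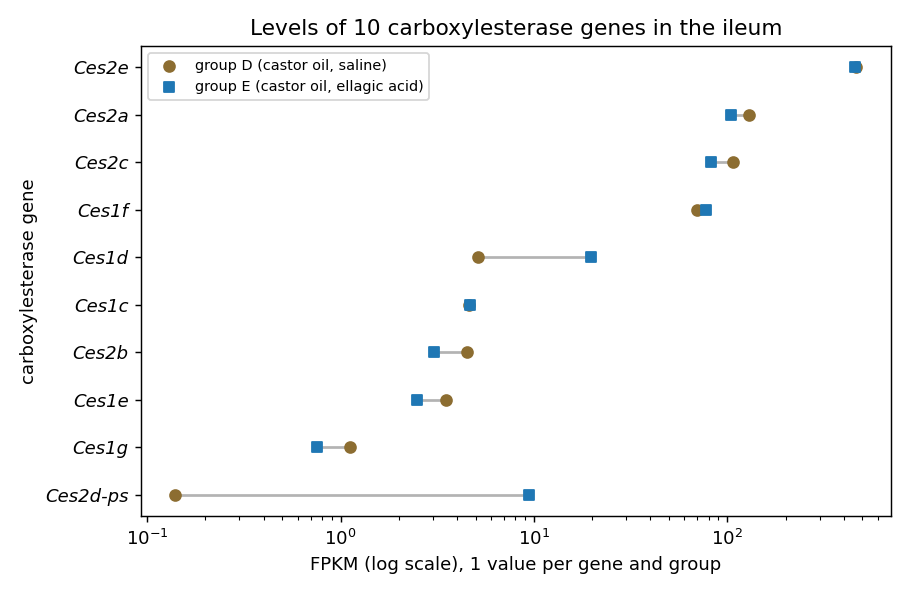
FPKM (log scale) of the 10 carboxylesterase members in group D (circles) and group E (squares), 1 value per gene and group, ordered by the level in group D. Ces2e lies at 465 and 458 FPKM, while Ces1d moves from 5.16 to 19.7 FPKM and Ces2d-ps from 0.140 to 9.38 FPKM.

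Ces2a and Ces2c, the next genes in the order, were listed lower in group E by a similar amount. Ces2a was at 129 FPKM in group D against 105 FPKM in group E, with a log2 change of -0.30. Ces2c, known to hydrolyse acylglycerols in the gut and liver of mice, was at 107 FPKM in group D against 81.9 FPKM in group E, with a log2 change of -0.39. The ratio of Ces2a to Ces2c was 1.20 in group D and 1.28 in group E. Ces2b, at a much lower level, was at 4.51 FPKM in group D against 3.03 FPKM in group E, with a log2 change of -0.57. Each of these differences is smaller than 2-fold. For comparison, 12694 genes averaged 1 FPKM or more and were above 0 in both groups, and all but the outer 5% of them on each side lay between log2 changes of -0.60 and 0.59. Of the 5 Ces2 members, 4 were listed lower in group E and 1, Ces2d-ps, higher, although the sign of Ces2e turned under 1 of 5 other scalings. The coding ones summed to 706 FPKM in group D against 648 FPKM in group E.

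Within the Ces1 subfamily, where 3 of 5 members were listed higher in group E and 2 lower (the sign of Ces1c turned under 4 of 5 other scalings), Ces1f dominated and differed little between the groups. Ces1f, also called TGH-2 for its relation to the triacylglycerol hydrolase Ces1d, was at 69.5 FPKM in group D against 77.2 FPKM in group E, with a log2 change of 0.15. Ces1f held 82.8% of the FPKM of the Ces1 members in group D and 73.7% in group E. Ces1c was at 4.64 FPKM in group D against 4.66 FPKM in group E, the smallest log2 change of the family at 0.01. Ces1e (egasyn, which holds β-glucuronidase in the endoplasmic reticulum) was at 3.50 FPKM in group D against 2.47 FPKM in group E, with a log2 change of -0.50. Ces1g, a lipid-handling esterase of mouse liver and intestine, was at 1.12 FPKM in group D against 0.756 FPKM in group E. With a mean below 1 FPKM, Ces1g was the only member that did not pass the filter on low values, and its log2 change of -0.56 rests on very low levels.

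Ces1d was the coding member that differed most between the groups. It encodes triacylglycerol hydrolase, an enzyme of the endoplasmic reticulum of liver and fat cells that frees fatty acids from stored triglyceride. Ces1d (chromosome 8, 93166072 to 93197804) was at 5.16 FPKM in group D against 19.7 FPKM in group E, which is 3.82-fold higher in group E (log2 change 1.93). Its share of the FPKM of the Ces1 members went from 6.15% in group D to 18.8% in group E, and without it the Ces1 members summed to 78.8 FPKM and 85.1 FPKM. Among the 5816 genes that averaged 10 to 100 FPKM, as Ces1d did, 1.03% were past 2-fold and higher in group E. Its neighbours on either side in the cluster, Ces1c and Ces1e, were at log2 changes of 0.01 and -0.50. None of the 1905 windows of 100 bases in the Ces1d transcript occurred in a transcript of another gene, and 8 of them did so when 2 mismatches to other carboxylesterases or their pseudogenes were allowed.

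The pseudogene Ces2d-ps had the largest ratio in the family. Ces2d-ps (chromosome 8, 104867424 to 104874082) was listed at 0.140 FPKM in group D against 9.38 FPKM in group E, 67.1-fold higher (log2 change 6.07). The level in group D is near 0, and the ratio depends on it: the log2 change was 5.30 when 0.1 FPKM was added to both values and 3.19 when 1 FPKM was added. In all, 2 of the 9 members that passed the filter were past 2-fold and higher in group E, Ces1d and Ces2d-ps, and 0 were lower. Of the 12694 genes in the background, 1.59% were past 2-fold and higher and 1.31% past 2-fold and lower. Ces2d-ps passed the filter only through its value in group E.

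**Figure D2:**
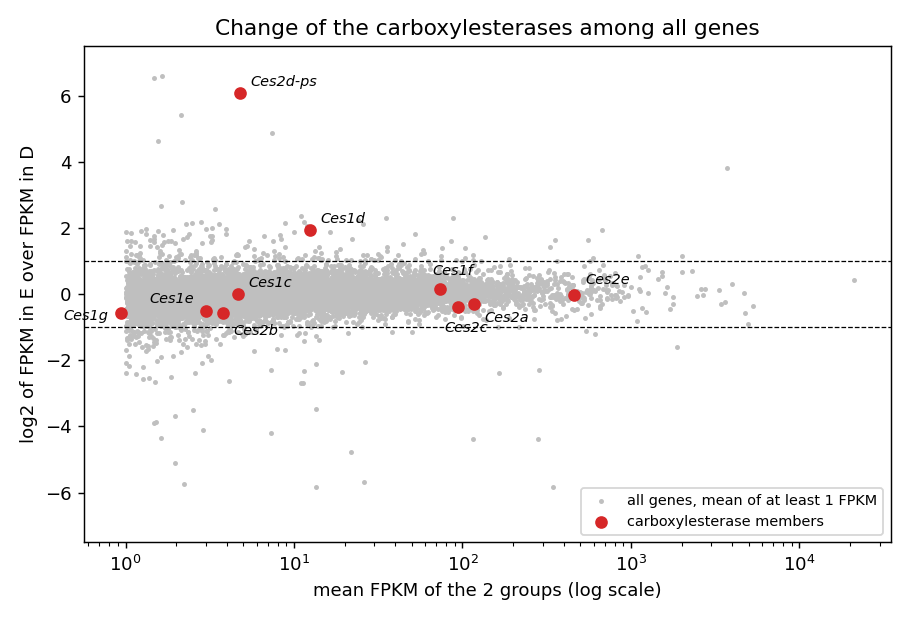
Log2 ratio of FPKM, E to D, (vertical axis) against the mean FPKM of the 2 groups (log scale) for all genes with a mean of at least 1 FPKM (grey) and the 10 members (red, Ces1g at a mean of 0.937 FPKM included), with dashed lines at 2-fold. Ces1d and Ces2d-ps lie above the upper line and the other 8 members between the lines. The axis leaves out 8 genes beyond a log2 change of 7.5 in either direction.

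Ces2d-ps shares much of its sequence with Ces2c, which lies next to it on the chromosome. Over 1655 aligned bases of the GENCODE M21 transcripts, 97.6% were identical, with 39 mismatches. The identity of Ces2d-ps was 92.2% to Ces2b, 84.5% to Ces2e and 84.4% to Ces2a. The stretch of 60 bases in which the pair differs most, with 10 mismatches in capitals, is shown because a read has to cover a difference to be told apart between the pair.
Ces2d-ps: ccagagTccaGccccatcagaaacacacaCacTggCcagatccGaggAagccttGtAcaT
Ces2c: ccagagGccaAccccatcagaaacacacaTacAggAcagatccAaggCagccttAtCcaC
The longest run without a difference was 181 bases. Of the 1557 windows of 100 bases in the Ces2d-ps transcript, 18.9% occurred unchanged in Ces2c and 48.3% in Gm8798, a pseudogene annotated within the same cluster that is not among the genes listed. In all, 57.0% of the windows occurred in another gene and 43.0% in none. Of the windows of Ces2c, 15.7% occurred in Ces2d-ps. The sum of Ces2c and Ces2d-ps was 107 FPKM in group D against 91.3 FPKM in group E, with a log2 change of -0.23. The share of reads that each of the pair received was not tested.

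**Figure D3:**
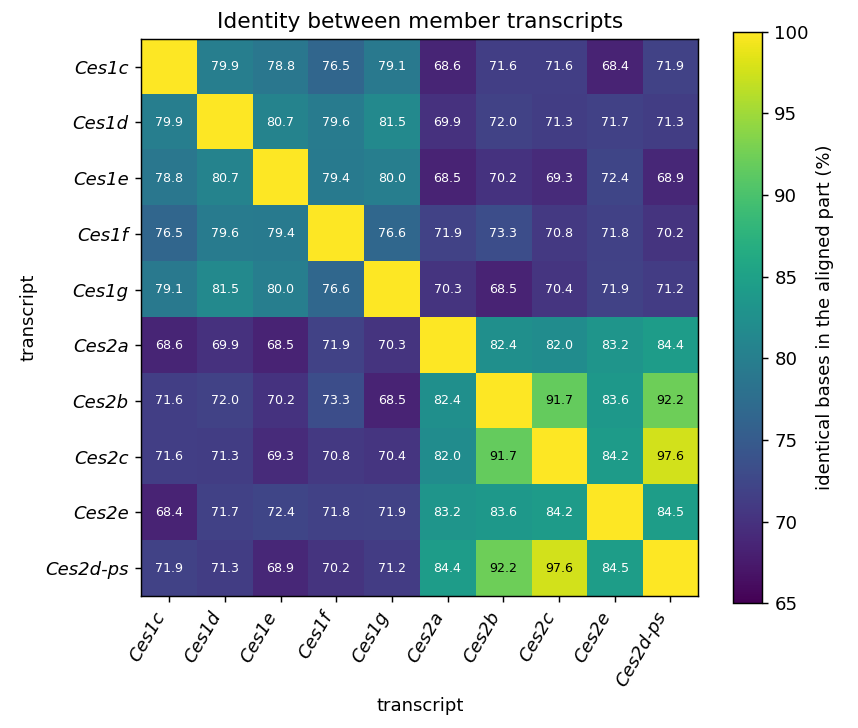
Percentage of identical bases in the aligned part of each pair of member transcripts, from GENCODE M21, with the members in rows and columns. Ces2c and Ces2d-ps are the most alike at 97.6%, pairs within Ces1 reach at most 81.5%, and pairs between Ces1 and Ces2 lie between 68.4% and 73.3%.

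The other members shared fewer windows with other genes. Ces1f, Ces1e, Ces1g and Ces2e had 0 windows of 100 bases in common with any other gene, Ces1c had 24 of 1729 in common with Ces1b, and Ces2b had 3 of 3309 in common with the pseudogene Gm6831. Ces2a had 10.7% of its windows in common with the pseudogene Gm7208, which is not among the genes listed either. With 2 mismatches allowed, 35.7% of the windows of Ces2c, 21.9% of those of Ces2a and 17.5% of those of Ces1c matched a relative. For Ces2e, the most abundant member, the share was 0.808%. The transcripts are those of the reference genome, and the strain of the study, BALB/c, can differ from it.

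Carboxylesterase genes outside the members were at low levels. Ces2g was the highest of the 9 such genes listed, at 1.76 FPKM in group D against 2.54 FPKM in group E, with a log2 change of 0.53. The other 8 were under 0.3 FPKM in both groups. Ces1b, Ces2f, Ces2h and Ces3a were above 0 in both groups, Ces3a at 0.120 and 0.236 FPKM, Ces1b at 0.140 and 0.0927 FPKM, Ces2f at 0.0759 and 0.0673 FPKM and Ces2h at 0.0278 and 0.0740 FPKM. Ces1a and Ces4a were listed at 0 in both groups. Ces3b was listed at 0 (group D) and 0.0318 FPKM (group E), and Ces5a (cauxin, abundant in cat urine) at 0.0485 FPKM (group D) and 0 (group E).

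The genes flanking the clusters that passed the filter on low values differed by less than 2-fold. The Ces1 cluster spans 93020215 to 93535707 and the Ces2 cluster 104734003 to 105150109 on chromosome 8 in the authors' table. Of the 12 nearest genes on either side, 9 passed the filter, with log2 changes between -0.46 and 0.71. Cbfb, the partner of the RUNX factors next to the Ces2 cluster, was at 17.9 and 17.3 FPKM. At the outer limits of that range, Rrad was at 0.898 and 1.47 FPKM and B3gnt9 at 2.81 and 2.03 FPKM. The lowly expressed genes Capns2 (0.661 and 0.203 FPKM) and 4930488L21Rik (0.395 and 0.131 FPKM) did not pass the filter.

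**Figure D4:**
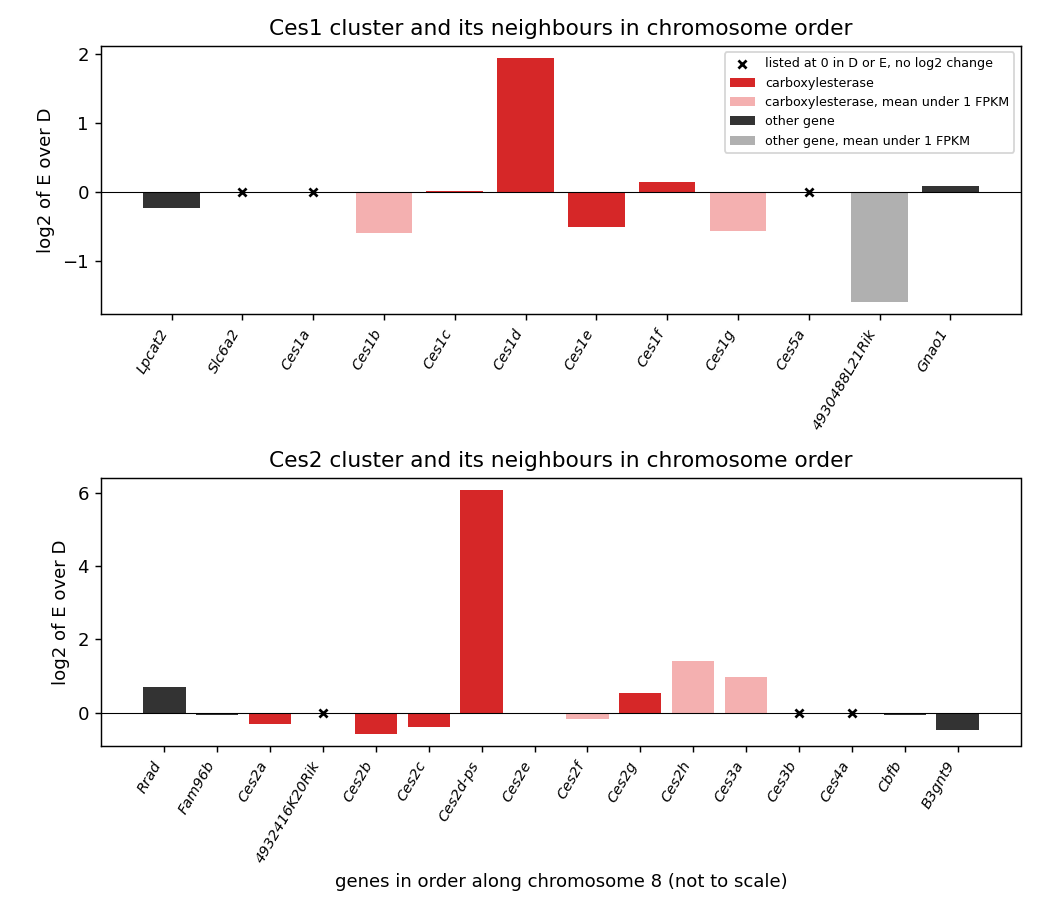
Log2 ratio of FPKM, E to D, for the genes of the Ces1 cluster (top) and the Ces2 cluster (bottom) with the 2 nearest other genes on each side, in chromosome order. Pale bars are genes with a mean under 1 FPKM and crosses are genes listed at 0 in 1 group or both. Ces1d (1.93) and Ces2d-ps (6.07) are the tallest bars, and the genes with a bar directly beside them lie between -0.50 and 0.01.

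Other hydrolases of the ileum were mostly at similar levels. Of 13 other ester and epoxide hydrolases on the list, 12 passed the filter, with a median log2 change of -0.02. Of these 12, 2 were past 2-fold and higher in group E and 0 lower, against 1.59% and 1.31% of the background genes. Esterase D (Esd) was at 86.5 FPKM in group D against 81.1 FPKM in group E, Cmbl at 76.5 and 61.5 FPKM, the epoxide hydrolase Ephx2 at 44.4 and 45.6 FPKM and the paraoxonase Pon2 at 43.5 and 37.3 FPKM. The pair past 2-fold was Aadac, a lipid and drug deacetylase of the endoplasmic reticulum (4.22 and 9.53 FPKM), and the paraoxonase Pon1 (0.0314 and 2.92 FPKM). Aadac and Pon1 were picked after their values were seen. The level of Pon1 in group D is near 0, and Pon1 passed the filter only through its value in group E.

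Among the genes that make or break down triglyceride and passed the filter, 1 was past 2-fold. Of 15 genes of triglyceride synthesis and chylomicron assembly, 0 were past 2-fold in either direction, and the median log2 change was 0.04. Apoa1 was at 2693 FPKM in group D against 2667 FPKM in group E, Apoa4 at 756 and 889 FPKM, Mttp, the transfer protein that loads lipid on apolipoprotein B, at 581 and 627 FPKM, and Apob itself at 617 and 490 FPKM. Of 16 neutral lipid lipases, 12 passed the filter. Of these 12, 0 were past 2-fold and higher and 1 was lower, against 1.59% and 1.31% of the background genes. The lower gene was lipoprotein lipase (Lpl), at 41.8 FPKM in group D against 1.52 FPKM in group E. Abhd6, a monoacylglycerol lipase, was at 88.3 and 86.5 FPKM, Pnliprp2, a lipase related to that of the pancreas, at 57.0 and 80.3 FPKM, and Pnpla2, the triglyceride lipase of lipid droplets, at 30.4 and 55.9 FPKM. Hormone-sensitive lipase (Lipe) was at 30.0 and 38.9 FPKM. Besides Lpl, Pnpla2 (log2 change 0.88), the monoacylglycerol lipase Mgll (0.73; 10.4 and 17.1 FPKM) and Dgat1, which makes triglyceride (-0.62; 152 and 99.1 FPKM), lay beyond the range of -0.60 to 0.59 given above. Lpl, Mgll and Dgat1 were named with their values known.

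The 16 transcription factors of enterocyte and xenobiotic genes had a median log2 change of 0.17. Of them, 2 were past 2-fold and higher in group E and 0 lower, against 1.59% and 1.31% of the background genes. Hnf4a, a master regulator of enterocyte and liver genes, was at 266 FPKM in group D against 303 FPKM in group E, its relative Hnf4g at 94.9 and 100.1 FPKM, the bile acid receptor Nr1h4 at 85.5 and 79.6 FPKM and Nfe2l2 (NRF2), which induces antioxidant and detoxifying genes, at 57.8 and 87.8 FPKM (log2 change 0.60). The xenobiotic receptor Nr1i2 (PXR), which induces drug-metabolising enzymes, was at 46.0 and 49.5 FPKM. The genes past 2-fold were Gata4, which marks the proximal part of the small intestine, at 5.43 and 11.7 FPKM, and Pparg, at 4.04 and 8.40 FPKM. Nr1i2, Gata4 and Pparg were picked after their values were seen.

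**Figure D5:**
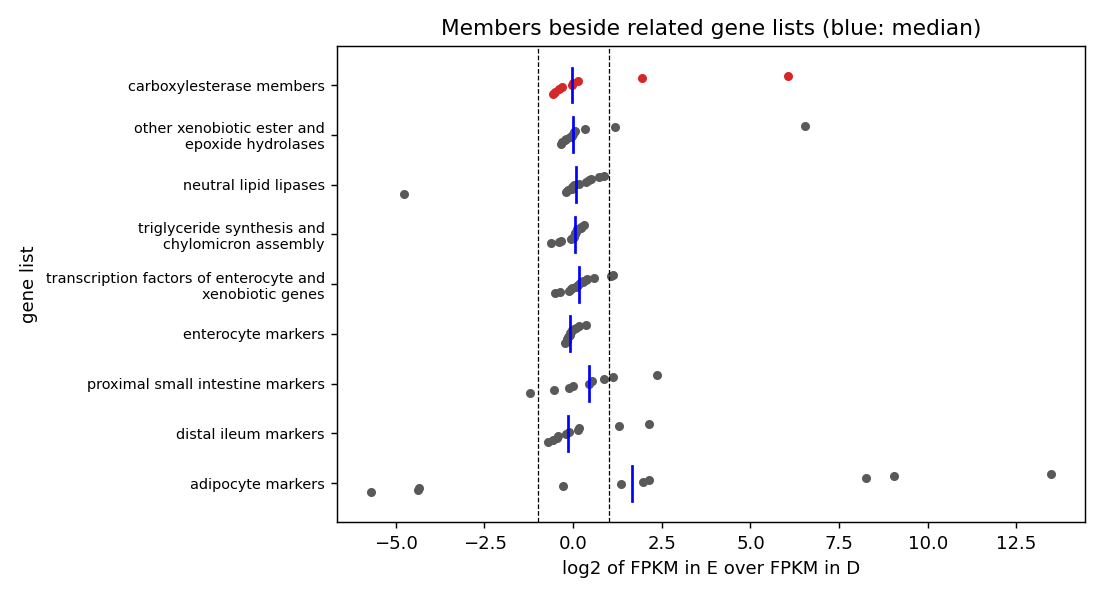
Log2 ratio of FPKM, E to D, for each gene with a mean of at least 1 FPKM in the carboxylesterase members (red) and in 8 related or marker lists (grey), with the median of each list in blue and dashed lines at 2-fold. The members' median is -0.02, that of the enterocyte markers -0.09 and that of the adipocyte markers 1.66. The 10 adipocyte markers shown lie on both sides, with 6 past 2-fold and higher and 3 past 2-fold and lower. Of the background genes, 1.59% were past 2-fold and higher and 1.31% past 2-fold and lower.

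Among the marker lists, that of adipocytes differed most widely between the groups, in both directions. The smooth muscle, macrophage, colon and pancreas markers that passed the filter differed by less than 2-fold. Of 15 adipocyte markers, 11 were listed higher and 4 lower in group E, and their summed level was 698 FPKM in group D against 949 FPKM in group E. Over all 23358 genes listed, 8729 were higher and 9077 lower in group E. In group D, Lep, Retn and Cfd were at 0, and Adipoq (0.120 FPKM, against 63.4 FPKM in group E) and Plin1 (0.0495 and 15.2 FPKM) near 0, whereas Fabp4 went from 536 to 25.6 FPKM and Thrsp from 51.0 to 0.989 FPKM. By limits set after the values were seen, 4 genes in the table were above 0 and under 0.2 FPKM in group D and at 5 FPKM or more in group E, namely Adipoq, Plin1, Car3 and Ces2d-ps. By the same limits 2 genes were near 0 in group E only, and 13 genes at 5 FPKM or more in group E were at 0 in group D, against 6 the other way. Adipoq and Gapdh have the same value in group D, digit for digit. Markers of the proximal small intestine had a median log2 change of 0.45, with 7 of 10 higher and 3 lower in group E. Their sum went the other way, at 1383 FPKM in group D against 1317 FPKM in group E. Of the 9 that passed the filter, 2 were past 2-fold and higher and 1 lower, against 1.59% and 1.31% of the background genes. Lct (lactase) was at 3.59 and 18.4 FPKM, Rbp2 at 483 and 886 FPKM and Fabp1 in the other direction at 854 and 367 FPKM. Of the 10 genes on the list of distal ileum markers, 6 were lower and 4 higher in group E, with a median log2 change of -0.16. Their sum was 6747 FPKM in group D against 4734 FPKM in group E. The 2 past 2-fold, both higher, were Fgf15 (0.920 and 4.04 FPKM) and Gip (20.7 and 50.5 FPKM). Gip, though on this list, is best known from the proximal small intestine. Of the background genes, 1.59% were past 2-fold and higher. Median log2 changes were 0.18 for colon markers, 0.32 for smooth muscle markers and 0.04 for macrophage markers. Of the 11 pancreas markers, 6 (group D) and 7 (group E) were listed at 0, and those other than Clps summed to 1.59 and 1.82 FPKM. Lep, Retn, Thrsp, Fgf15 and Gip were named with their values known. The part of these markers in the values of Ces1d and Ces2d-ps was not tested. The hepatocyte markers other than Cps1, which the intestine also expresses, summed to 6.37 FPKM in group D against 2.86 FPKM in group E.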

How the data were processed

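RNA-seq libraries of the ileum of group D and group E were made by the authors, who aligned paired-end reads with TopHat2 2.0.12 on an index from Bowtie2 2.2.3. The labels and the study's methods name DESeq 1.18.0 for the comparison. The authors deposited 1 FPKM value per gene and group, and neither the scaling between libraries nor the genome build is given in the sources used here. Of the 10 members, 7 start and end within 1 base of their GRCm38 RefSeq position, after 1 was added to each start because the table counts starts from 0. The columns with the authors' own fold changes, P-values and q-values, and their table of enriched KEGG pathways, were not used.

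For genes above 0 in both groups, the FPKM ratio of E to D was put on the log2 scale with no pseudocount. Counts past 2-fold were taken over genes with a mean of at least 1 FPKM, on the whole table. The counting was tested on simulated data. The members and the other 15 lists of genes were chosen with earlier results of these data known. Genes were named by a rule that takes all members, other carboxylesterases, 3 genes on each side of each cluster and up to 4 members of each list with the highest mean, plus Adipoq, Plin1, Alb and Actb, and exceptions are marked. Of the genes beside the clusters, 1 that the rule names is not reported here. Alternatives were pseudocounts, 5 scalings, fold thresholds, filters on low values, leaving out Ces2d-ps and adding the other carboxylesterases. Transcripts were compared by local alignment (Biopython 1.88) and by exact windows of 100 bases on either strand. Computation used Python 3.11.15, pandas 2.3.3 and numpy 2.4.6.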

Additional observations from a re-analysis of the deposited data

How the results depend on the processing

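The count of members past 2-fold and higher in group E was 2, and it was 1 without Ces2d-ps and also 1 over members that averaged 5 FPKM or more. The count of members past 2-fold and lower stayed 0 in each alternative run. The median log2 change of the members was -0.02, and -0.16 both without Ces2d-ps and with no filter on low values. The 5 scalings moved all log2 changes by between -0.08 and 0.09 and no member across 2-fold, while the sign turned for Ces1c under 4 of them (-0.08 to 0.10) and for Ces2e under 1 (-0.11 to 0.07). Over all genes listed, the FPKM summed to 459683 in group D against 589890 in group E, and a scaling to that sum was not run. At a pseudocount of 1 FPKM the log2 change was 1.75 for Ces1d and 3.19 for Ces2d-ps. No paired analysis was possible because each group has 1 value per gene, and no replicate could be left out. Without counts, no interval can be given for a level.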
